A study of Homo sapiens with 14 samples.

Results

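The 4 mature miRNAs cut from the neighbouring MIR191 and MIR425 hairpins were followed in PANC-1 cells, an established line of human pancreatic cancer cells. They are hsa-miR-191-5p, hsa-miR-191-3p, hsa-miR-425-5p and hsa-miR-425-3p, and they were found by name in a table of read counts for 2848 entries. The cluster was chosen from these same data after miR-191-3p had been seen to be lower with proanthocyanidins at 24 h. That contrast is therefore given as values only for all 4 miRNAs, with no p-value. All 4 were among the 810 entries that passed the filter on low counts and were tested.

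The cells grew in medium with serum and were given DMSO, the vehicle, or a 20 µg/ml dose of proanthocyanidins (PA), which are plant tannins of grapes made of linked flavanol units. DMSO cells were harvested at 0, 3, 12 or 24 h, and PA cells at 3, 12 or 24 h. Each of these 7 groups had a library A and a library B, which the series calls biological replicates without saying how the cultures were kept apart. The labels name no genetic change, and the sequencing was done at more than 1 read length without a record of which library had which.

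A miRNA hairpin is cut by Drosha and Dicer into a duplex with a strand from its 5′ side (5p) and a strand from its 3′ side (3p). An Argonaute protein usually keeps 1 strand, and the other is mostly lost, so the 2 arms of a hairpin can differ widely in level although both come from the same transcript. Bases 2 to 8 of the kept strand, the seed, choose its targets. miR-191-5p and miR-425-5p are abundant in many epithelial tissues and tumours and are often used as reference miRNAs in quantitative PCR.

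On GRCh38, MIR191 lies at chromosome 3, 49020618 to 49020709, and MIR425 at chromosome 3, 49020148 to 49020234, both on the minus strand and 383 bases apart. In GENCODE 29 both sit within DALRD3 (49015488 to 49022293, minus strand), and neither overlaps an exon in the 4 DALRD3 transcripts that span them. MIR191 also lies inside 1 transcript of NDUFAF3 on the plus strand, again in an intron. The hairpins are shown because the comparison of arms rests on them. Capitals mark the mature strands that RefSeq (GRCh38.p14) lists, which are both arms of MIR191 and the 3p arm of MIR425:
MIR191: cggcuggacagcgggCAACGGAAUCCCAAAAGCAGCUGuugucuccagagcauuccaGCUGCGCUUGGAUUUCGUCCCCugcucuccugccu
MIR425: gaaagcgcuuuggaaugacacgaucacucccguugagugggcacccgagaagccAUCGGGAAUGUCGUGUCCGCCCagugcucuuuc

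RefSeq held a mature sequence for 3 of the 4, miR-425-5p being the other. They are printed 5′ to 3′ with the seed in capitals, to show that the arms do not share a seed:
miR-191-5p: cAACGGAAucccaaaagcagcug
miR-191-3p: gCUGCGCUuggauuucgucccc
miR-425-3p: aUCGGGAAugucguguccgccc
None of these 3 seeds occurred in another of the 2370 mature miRNA names of that table, so each formed a seed group of its own there.

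Total counts ran from 1032391 to 3111014 per library, with a median of 2076388. Levels are given in CPM, the count relative to the TMM-scaled library total. All 6 miRNAs chosen as marks of the carcinoma cells were present, led by miR-21-5p at 142163 to 239598 CPM, while miR-155-5p reached only 27.7 CPM. Acinar and islet miRNAs (4 of 6 listed in the table) summed to 2.17 to 10.2 CPM, and the 5 haematopoietic ones to 1.64 to 6.37 CPM. The DMSO 12 h libraries stood apart. Their counts differed from each other by more than those of any other pair (chi-square over degrees of freedom 76.6, against 13.4 to 60.0). Their 7 fibroblast and endothelial miRNAs summed to 819 to 963 CPM, against 1072 to 1578 CPM in the other 12 libraries. Most of this was miR-126-3p and miR-126-5p, at 386 to 735 and 375 to 753 CPM over all libraries. By contrast, miR-143-3p reached at most 149 CPM and miR-214-3p 4.93 CPM. Their red blood cell miRNAs summed to 540 to 591 CPM, against 296 to 554 CPM elsewhere. That sum was nearly all miR-486-5p, and miR-451a reached at most 2.29 CPM. The 16 measured entries that lie in tRNA, rRNA, U2 or snoRNA sequence were taken as signs of RNA quality. They summed to 3599 to 6134 CPM in DMSO 12 h and 6847 to 11442 CPM in PA 12 h. DMSO 12 h did not stand apart here, with 5297 to 6475 CPM in DMSO 0 h, 4184 to 4320 in DMSO 3 h and 4617 to 4875 in PA 3 h. Most of the sum was miR-4454, at 2248 to 10171 CPM. Because the DMSO 12 h pair differed most, results of PA at 12 h are also given against the mean of DMSO at 3 and 24 h. Those of DMSO 12 h are also given without each of its libraries. The part of the marker differences in them was not tested.

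The cluster made up 1.84% to 4.27% of a library, almost all of it from the 2 5p strands. miR-191-5p held rank 7 to 14 among all entries, with 16286 to 55589 reads per library. miR-425-5p held rank 24 to 33, with 6077 to 19659 reads. The 3p strands were scarce, at 130 to 380 reads for miR-425-3p and 18 to 108 reads for miR-191-3p. Counting error is thus largest for miR-191-3p.

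miR-191-5p, the strand of MIR191 that is usually kept, had its lowest levels at 0 h and its highest single level in 1 DMSO 12 h library. In DMSO, A and B had 11859 and 13383 CPM (0 h), 16834 and 15741 (3 h), 16240.3 and 34352 (12 h), then 15174 and 19370.2 (24 h). With PA they had 15112 and 15654 CPM (3 h), 17569 and 17005 (12 h), then 22287 and 19984 (24 h). DMSO 12 h B alone lay above 22287 CPM, and the remaining 13 libraries spanned 11859 to 22287 CPM. Ordered by mean, the groups ran from DMSO 0 h (12621 ± 1078 CPM, SD, n = 2) through PA 3 h, DMSO 3 h, DMSO 24 h, PA 12 h and PA 24 h (21136 ± 1629) to DMSO 12 h (25296 ± 12807). From DMSO 3 h to DMSO 24 h to PA 12 h (16288, 17272 and 17287 CPM), and from PA 24 h to DMSO 12 h, neighbours in that order differed by less than the larger of their SDs. The other neighbours, PA 3 h and DMSO 3 h among them (15383 and 16288 CPM), did not overlap.

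miR-191-3p, the scarce strand of the same hairpin, had its lowest levels in PA at 24 h. In DMSO, A and B had 21.1 and 22.2 CPM (0 h), 31.7 and 39.2 (3 h), 54.6 and 40.9 (12 h), then 31.2 and 46.8 (24 h). With PA they had 28.4 and 33.5 CPM (3 h), 26.7 and 29.9 (12 h), then 20.4 and 15.1 (24 h). Both PA 24 h libraries were below each of the other 12. By mean, PA 24 h (17.8 CPM) was followed by DMSO 0 h (21.6), PA 12 h (28.3), PA 3 h (31.0), DMSO 3 h (35.4), DMSO 24 h (39.0) and DMSO 12 h (47.8), and from PA 12 h upward neighbours in this order differed by less than the larger of their SDs. The 2 strands of MIR191 thus had different extremes: miR-191-5p was second highest in PA 24 h A, where miR-191-3p was second lowest.

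miR-425-5p, the kept strand of MIR425, varied little, and its highest library was 1.34 times its lowest. In DMSO, A and B had 5745 and 5905 CPM (0 h), 5631 and 5578 (3 h), 5086 and 5526 (12 h), then 5098 and 4965 (24 h). With PA they had 5726 and 6655 CPM (3 h), 5793 and 4949 (12 h), then 6579 and 6036 (24 h). PA lay above DMSO in both libraries at 3 h and at 24 h and overlapped it at 12 h. The group means ran from 5032 CPM in DMSO 24 h through DMSO 12 h, PA 12 h, DMSO 3 h, DMSO 0 h and PA 3 h to 6307 CPM in PA 24 h, and only DMSO 3 h and DMSO 0 h were neighbours in this order that differed by more than the larger of their SDs.

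miR-425-3p ranged from 80.5 CPM in DMSO 0 h A to 167 CPM in DMSO 12 h B. In DMSO, A and B had 80.5 and 127 CPM (0 h), 97.0 and 123 (3 h), 125 and 167 (12 h), then 112 and 165 (24 h). With PA they had 94.8 and 90.0 CPM (3 h), 104 and 144 (12 h), then 117 and 113 (24 h). The B library was higher than A in all 4 DMSO groups, by 0.34 to 0.65 on the log2 scale, while the largest difference between a DMSO time and 0 h was 0.50. The group means ran from 92.4 CPM in PA 3 h through DMSO 0 h, DMSO 3 h, PA 24 h, PA 12 h and DMSO 24 h to 146 CPM in DMSO 12 h, with each pair of neighbours closer than the larger of their SDs.

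**Figure D1:**
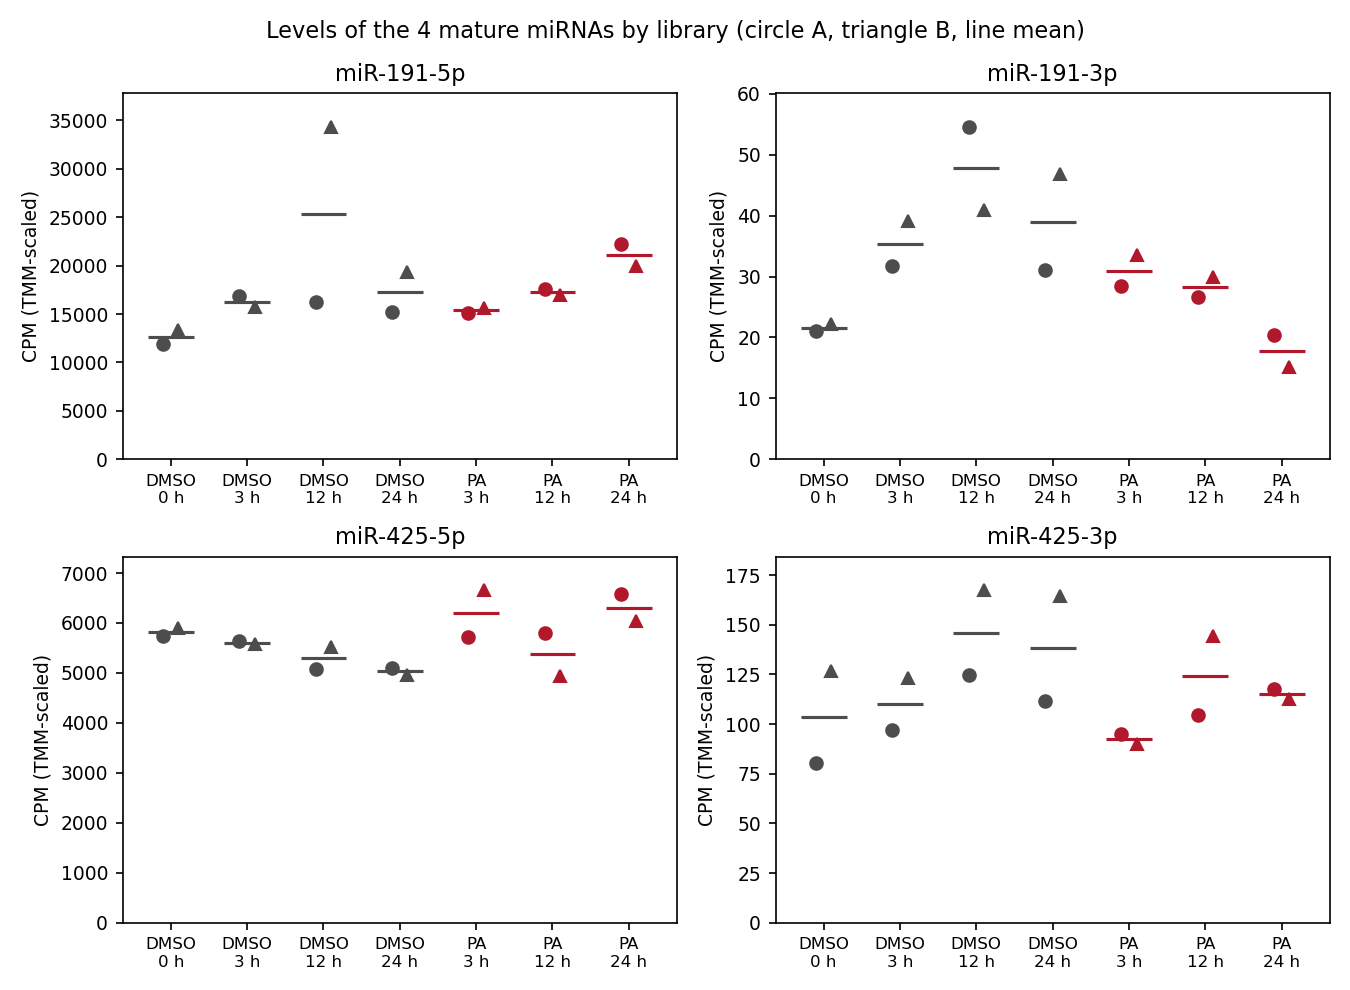
Level of each miRNA in CPM (vertical axis, from 0) in the 7 groups (horizontal axis), with circles for library A, triangles for B and a line at the mean of the 2. DMSO 12 h B stands alone for miR-191-5p at 34352 CPM, the PA 24 h libraries are the lowest for miR-191-3p at 20.4 and 15.1 CPM, and miR-425-5p stays between 4949 and 6655 CPM.

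The series set PA against DMSO at 3 times to see how miRNA levels changed. At 3 h, no miRNA of the cluster passed. PA lay below DMSO in both libraries for miR-191-5p and miR-425-3p and above it for miR-425-5p. How many of the 810 entries were separated in this way was not counted. With 2 libraries a group, no result is read from such separation here or in the other comparisons. The log2 fold changes of PA against DMSO (± standard error from edgeR) were -0.08 ± 0.24 for miR-191-5p, -0.19 ± 0.28 for miR-191-3p, 0.14 ± 0.15 for miR-425-5p and -0.25 ± 0.26 for miR-425-3p. In edgeR's quasi-likelihood test 0 of 4 passed an adjusted p of 0.05, where 0.247% of the 810 entries did. None had an unadjusted p under 0.05 in edgeR or in DESeq2. The 95% intervals, not adjusted for the number of entries, ran from -0.60 to 0.44 for miR-191-5p and from -0.17 to 0.45 for miR-425-5p. Changes within these ranges were thus compatible with the data.

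At 12 h, both strands of MIR191 were on average lower with PA than with DMSO, and miR-425-5p differed least. miR-191-5p averaged 17287 ± 399 CPM with PA and 25296 ± 12807 CPM with DMSO, and the PA libraries lay between the 2 DMSO libraries (log2 fold change -0.55 ± 0.24, edgeR adjusted p = 0.168). miR-191-3p averaged 28.3 ± 2.23 CPM with PA and 47.8 ± 9.68 CPM with DMSO, with no overlap (-0.76 ± 0.29, adjusted p = 0.0993). miR-425-5p (0.02 ± 0.15, adjusted p = 0.972) and miR-425-3p (-0.22 ± 0.26, adjusted p = 0.632) overlapped between the groups. Again 0 of 4 passed, against 11.1% of all entries. The 2 strands of MIR191 had an unadjusted p under 0.05, by edgeR and by DESeq2.

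The value of miR-191-5p at 12 h depended on which DMSO library was used. Without DMSO 12 h A its log2 fold change was -0.99 and passed (edgeR adjusted p = 0.000927), and without DMSO 12 h B it was 0.09 (adjusted p = 0.788). Set against the mean of DMSO at 3 and 24 h, where 0.247% of entries passed, PA 12 h differed by 0.04 ± 0.21 in miR-191-5p and by -0.39 ± 0.25 in miR-191-3p. The values for miR-425-5p and miR-425-3p were then 0.02 ± 0.13 and 0.02 ± 0.22. None of the 4 passed (adjusted p 0.652 to 0.999), and 0 had an unadjusted p under 0.05. The DMSO 24 h libraries in this control were part of the contrast that chose the cluster, so these values serve as description only.

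At 24 h, miR-191-3p was lower with PA and, with TMM scaling, the 2 5p strands were higher in both libraries. miR-191-3p averaged 17.8 ± 3.76 CPM with PA and 39.0 ± 11.1 CPM with DMSO, a log2 fold change of -1.10 ± 0.30. miR-425-5p averaged 6307 ± 384 and 5032 ± 94.3 CPM (0.33 ± 0.15), miR-191-5p 21136 ± 1629 and 17272 ± 2967 CPM (0.29 ± 0.24), and miR-425-3p 115 ± 3.40 and 138 ± 37.6 CPM (-0.26 ± 0.26). This contrast chose the cluster, so no call is read from it, and 6.67% of all entries passed there. With each library left out in turn, the log2 fold change of miR-191-3p ran from -1.45 to -0.78. Without DMSO 24 h B, that of miR-425-3p was 0.047.

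Scaling bore on the 5p strands at 24 h. With total counts in place of TMM, the median of all entries moved by -0.18 on the log2 scale in this comparison. The log2 fold changes then were 0.14 for miR-425-5p and 0.11 for miR-191-5p, both still above the median of all entries, and -1.29 for miR-191-3p. Scaled by total counts, miR-191-5p overlapped between the groups. It was at 19740 and 19215 CPM in PA 24 h and at 16075 and 20042 CPM in DMSO 24 h. The 16 signs of RNA quality summed to 8996 to 11090.0 CPM in PA 24 h and 7100.3 to 8757 CPM in DMSO 24 h. The part of this in the values above was not tested.

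Over time in DMSO alone, both strands of MIR191 passed the test at 12 h, and neither strand of MIR425 passed at any time. At 12 h against 0 h, miR-191-5p rose by 1.003 ± 0.247 (edgeR adjusted p = 0.0156) and miR-191-3p by 1.15 ± 0.30 (adjusted p = 0.0198) on the log2 scale. In both strands each 12 h library was above each 0 h library. miR-425-3p differed by 0.50 ± 0.27 (adjusted p = 0.267) and miR-425-5p by -0.13 ± 0.15 (adjusted p = 0.609). So 2 of 4 passed, where 12.7% of all entries did. DMSO 12 h B carried most of the miR-191-5p difference: without it the value was 0.36 (adjusted p = 0.218). That call was also lost without DMSO 0 h A (1.01, adjusted p = 0.103). For miR-191-3p, the call was lost when DMSO 12 h A was left out (0.92, adjusted p = 0.0896). It was also lost when either DMSO 0 h library was, at 1.19 without A (adjusted p = 0.106) and 1.25 without B (adjusted p = 0.0642). With the 4 libraries of these groups alone neither strand passed (adjusted p = 0.164 and 0.147).

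The other DMSO times gave smaller differences of the same sign for MIR191. At 3 h against 0 h, miR-191-5p differed by 0.37 ± 0.24 and miR-191-3p by 0.71 ± 0.30, with no overlap between the groups (edgeR adjusted p = 0.617 and 0.548). Of the 4 miRNAs 0 passed, as did 0% of all entries, by edgeR and by DESeq2, and miR-191-3p alone had an unadjusted edgeR p under 0.05. At 24 h against 0 h the values were 0.45 ± 0.24 and 0.85 ± 0.30 (adjusted p = 0.365 and 0.13), and 0 of 4 passed against 3.58% of all entries. DESeq2 called 0 of 4 here. The DMSO 24 h libraries were part of the contrast that chose the cluster, so the 24 h values serve as description only. miR-425-5p differed by -0.06 ± 0.15 at 3 h and -0.21 ± 0.15 at 24 h (adjusted p = 0.954 and 0.476). These 3 comparisons share the DMSO 0 h libraries, in which MIR191 had its lowest 5p levels, so they are not independent.

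**Figure D2:**
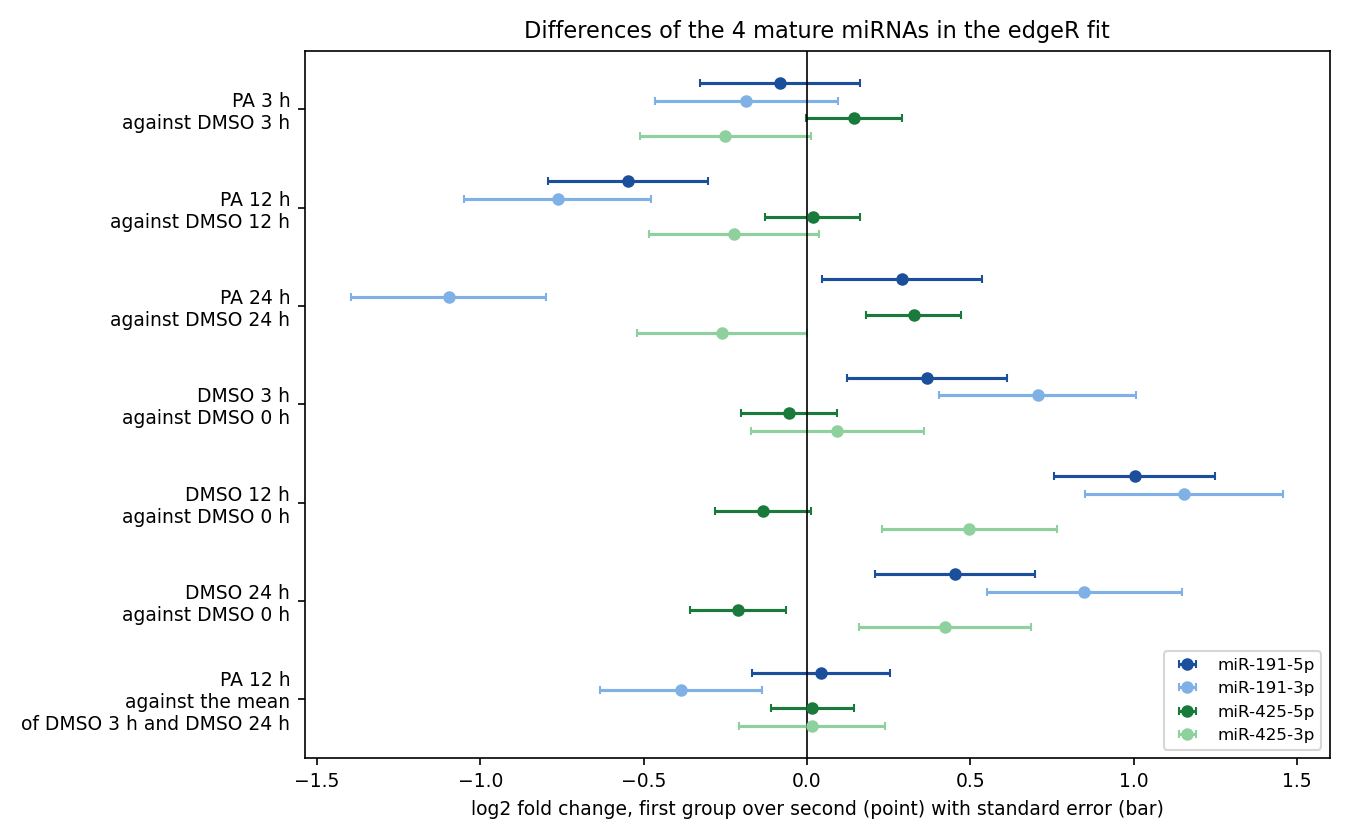
Log2 fold change (horizontal axis, points, first-named group over the second) with its standard error (bars) for the 4 miRNAs in each comparison (vertical axis), from the edgeR fit of all 14 libraries. The 2 strands of MIR191 lie at 1.003 and 1.15 for DMSO 12 h against DMSO 0 h, miR-191-3p lies at -1.10 for PA 24 h, and miR-425-5p stays between -0.21 and 0.33.

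DMSO 12 h B differed from its partner in the 5p strand of MIR191 and much less in the rest of the cluster. The log2 difference, B minus A, was 1.08 for miR-191-5p, -0.41 for miR-191-3p, 0.12 for miR-425-5p and 0.42 for miR-425-3p, where the median size over the 810 tested entries was 0.50. Among the 82 entries with a mean of at least 1000 CPM, 6 differed by more than miR-191-5p. The largest were miR-4687-5p (-1.78), miR-148b-3p (-1.37) and miR-125a-5p (1.27), which were named after their values were seen.

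The 2 abundant strands, taken as a ratio that needs no scaling between libraries, gave 2.06 to 6.22 reads of miR-191-5p per read of miR-425-5p, with a median of 3.01. The ratio was 2.06 and 2.27 in DMSO 0 h, the lowest 2 of the 14. It was 3.19 and 6.22 in DMSO 12 h. The 12 libraries other than DMSO 12 h lay between 2.06 and 3.90. PA overlapped DMSO at 24 h (3.39 and 3.31 against 2.98 and 3.90) and lay below it at 3 h (2.64 and 2.35 against 2.99 and 2.82). With PA, the ratio was 3.03 and 3.44 at 12 h.

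**Figure D3:**
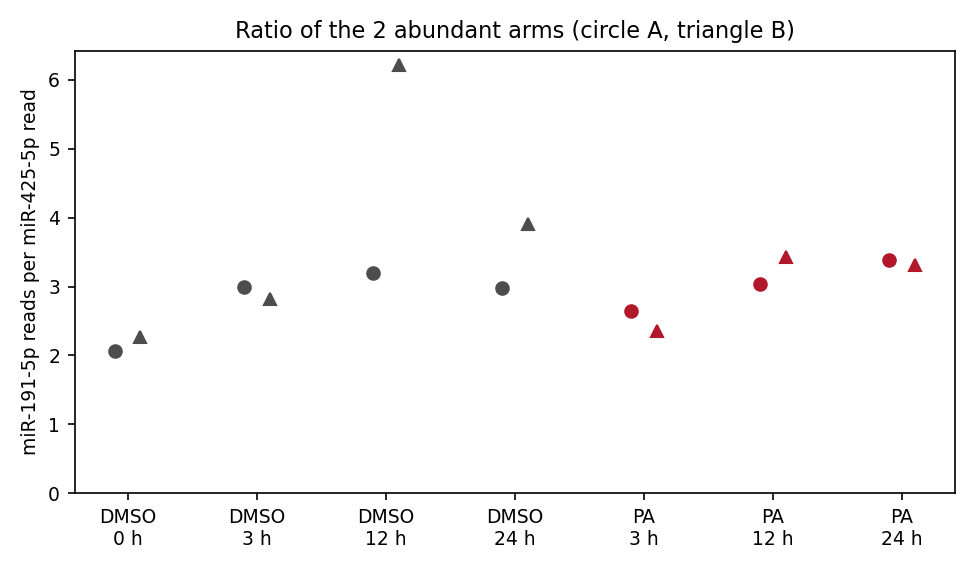
Reads of miR-191-5p per read of miR-425-5p (vertical axis, from 0) in each library of the 7 groups (horizontal axis), circles for A and triangles for B. DMSO 12 h B stands apart at 6.22, and the 12 libraries outside DMSO 12 h lie between 2.06 and 3.90.

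Both hairpins gave far more 5p than 3p reads in all 14 libraries. The 5p strand of MIR191 outnumbered the 3p strand by 297 to 1320 times (median 548), and that of MIR425 by 30.2 to 73.9 times (median 50.1). Among 162 hairpins with both arms tested, 89 had more 5p than 3p reads on average. MIR191 ranked 4 and MIR425 ranked 20 from the most 5p-dominated, with mean log2 ratios of 3p over 5p of -9.17 and -5.60.

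The 3p share of MIR191 reads was smallest in PA at 24 h, at 0.0917% in A (exact Clopper-Pearson 95% interval 0.0683% to 0.120%) and 0.0757% in B (0.0449% to 0.120%). In DMSO 24 h it was 0.205% (0.161% to 0.256%) and 0.241% (0.198% to 0.291%). These intervals cover counting error only, PCR copies may make them too narrow, and the shares rest on the same miR-191-3p reads that chose the cluster. In DMSO 12 h the share was 0.335% in A and 0.119% in B, a wider gap than in any other pair. The change in log2 3p over 5p with PA at 24 h was -1.40 ± 0.38 for MIR191 and -0.56 ± 0.31 for MIR425, where the median of the 162 hairpins was -0.16. The MIR425 value was -0.26 without DMSO 24 h B. By size the MIR191 change ranked 14 of 162. At 24 h 0% of hairpins passed in limma, 23 had an unadjusted p under 0.05, and no p is given for the cluster.

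At 3 and 12 h, where the arm balance could be tested, neither hairpin passed. At 3 h the change was -0.11 ± 0.38 for MIR191 and -0.38 ± 0.31 for MIR425 (limma adjusted p = 0.997 for both), and 0% of hairpins passed, with 1 of 162 at an unadjusted p under 0.05. At 12 h the change was -0.29 ± 0.38 for MIR191 and -0.25 ± 0.31 for MIR425 (adjusted p = 0.755 and 0.75), where 4.94% of hairpins passed. The 12 h value for MIR191 was 0.45 without DMSO 12 h A and -1.04 without DMSO 12 h B (adjusted p = 0.271 and 0.0546). Without PA 12 h A, the MIR425 value was 0.10. The 3 h value for MIR191 was 0.09 without DMSO 3 h B. Hairpins that passed at 12 h included miR-301a (2.38), miR-188 (1.79) and miR-30d (1.43), with relatively more 3p in PA, and miR-106b (-0.90). The smallest passing changes toward 3p were let-7i (0.93) and miR-125a (0.98). Against the mean of DMSO at 3 and 24 h, 0.617% of hairpins passed, and of these 6 only miR-30d did (1.098, limma adjusted p = 0.0266). The other 5 were then between -0.05 for let-7i and 0.93 for miR-188 (adjusted p 0.300 to 0.994). MIR191 was at -0.42 ± 0.33 (adjusted p = 0.776) and MIR425 at -0.0011 ± 0.27 (adjusted p = 0.997) against that control, and neither had an unadjusted p under 0.05. That control holds the DMSO 24 h libraries, which were part of the contrast that chose the cluster.

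**Figure D4:**
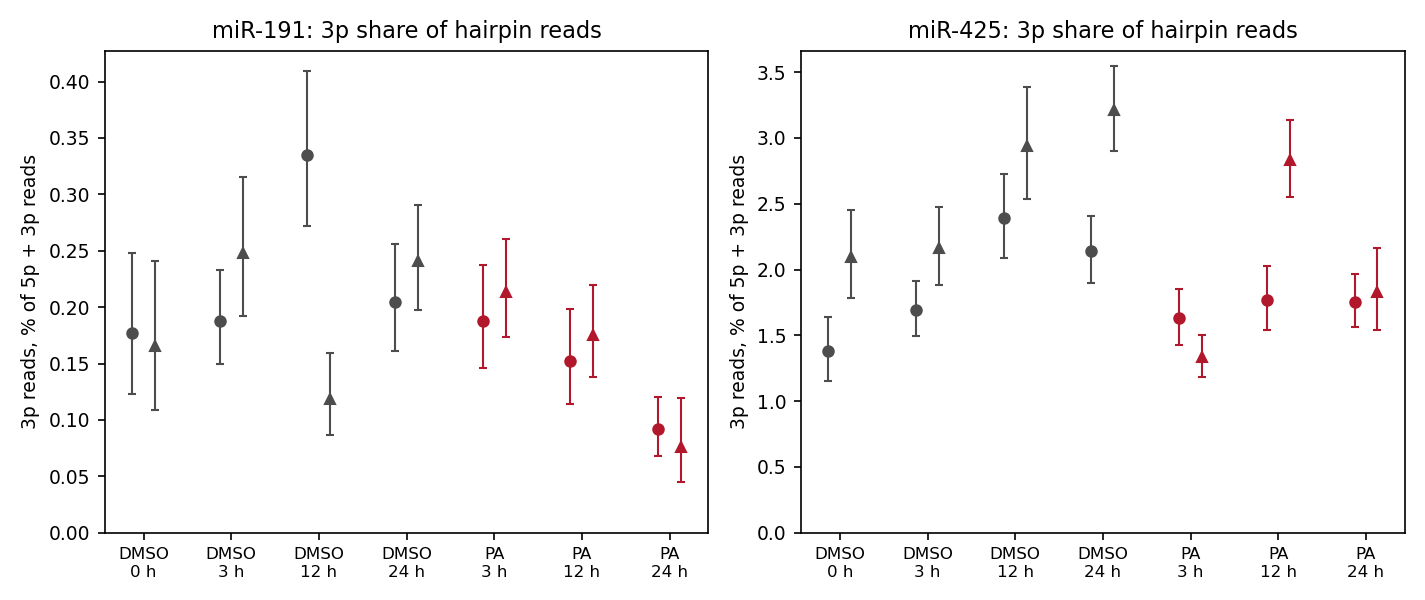
Share of 3p reads among all reads of the hairpin in percent (vertical axes, from 0, with different ranges) for MIR191 on the left and MIR425 on the right, by group (horizontal axes), circles for A and triangles for B, with exact 95% intervals for counting error. For MIR191 the PA 24 h libraries lie at 0.0917% and 0.0757% and the DMSO 12 h libraries at 0.335% and 0.119%, and for MIR425 the shares run from 1.34% to 3.21%.

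As a measure of how steady each miRNA was, the SD of log2 CPM over the 14 libraries was 0.13 for miR-425-5p, 0.31 for miR-425-3p, 0.37 for miR-191-5p and 0.49 for miR-191-3p. The median over all 810 tested entries was 0.46, and over the 82 entries of at least 1000 CPM it was 0.29. Only 11 of the 810 entries, and 3 of those 82, had a smaller SD than miR-425-5p. miR-191-5p had a larger SD than 61 of the 82. The SD also falls with abundance, so the 3p strands are not comparable with the 5p strands on this measure. Without the DMSO 12 h libraries the values were 0.14 for miR-425-5p and 0.25 for miR-191-5p, against a median of 0.21 over the same 82 entries. Then 34 of the 810 entries, and 8 of the 82, had a smaller SD than miR-425-5p, and 56 of the 82 a smaller SD than miR-191-5p.

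Among 17 other miRNAs used as references in quantitative PCR, all of them measured, none had a smaller SD than miR-425-5p, and 15 had a smaller SD than miR-191-5p. The steadiest were let-7a-5p (0.138), miR-24-3p (0.139) and miR-25-3p (0.140), just above miR-425-5p (0.135). Reads of let-7a-5p are uncertain because close let-7 copies may share them. The least steady over the 14 libraries were miR-186-5p (0.395), miR-30e-5p (0.395) and miR-361-5p (0.361). Without the DMSO 12 h libraries these were at 0.261, 0.214 and 0.315. Then miR-92a-3p (0.296) and miR-93-5p (0.287), named after their values were seen, lay above miR-186-5p and miR-30e-5p. With total counts in place of TMM, the SD was 0.11 for miR-425-5p, 0.09 for miR-24-3p and 0.37 for miR-191-5p, so that miR-425-5p was then above miR-24-3p. Without the DMSO 12 h libraries miR-24-3p (0.124), miR-26b-5p (0.132) and miR-423-5p (0.0984) were below miR-425-5p (0.139), the latter 2 being named after their values were seen.

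**Figure D5:**
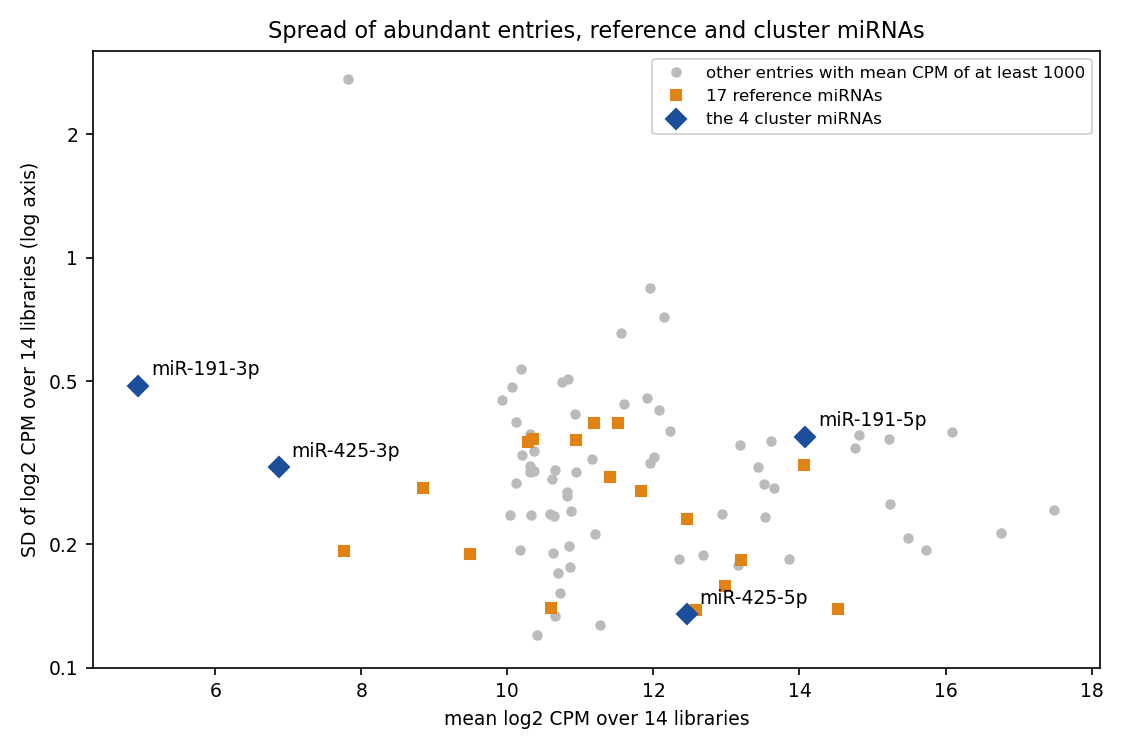
SD of log2 CPM over the 14 libraries (vertical axis, log scale) against mean log2 CPM (horizontal axis) for the 4 miRNAs of the cluster (diamonds), 17 reference miRNAs (squares) and the other entries of at least 1000 CPM (grey points). miR-425-5p lies at 0.13, beside the steadiest references, and miR-191-5p at 0.37, above 15 of the 17.

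Correlations between the 4 miRNAs across the 14 libraries differed in sign. Over 6 pairs, Pearson's r of log2 CPM was highest for miR-191-5p with miR-425-3p (r = 0.64, permutation p = 0.0123, adjusted p = 0.0736; Spearman's rho = 0.53, permutation p = 0.0564, adjusted p = 0.113). It was 0.23 without DMSO 12 h B and DMSO 0 h A, so that relation rests on those 2 libraries. miR-191-3p and miR-425-5p had r = -0.57 (permutation p = 0.0325, adjusted p = 0.0975) and rho = -0.64 (permutation p = 0.0164, adjusted p = 0.0983), with r = -0.49 without the 2 libraries farthest out. The 2 3p strands had r = 0.44 (permutation p = 0.116, adjusted p = 0.174) and rho = 0.39 (permutation p = 0.167, adjusted p = 0.250), with r = 0.55 without PA 24 h B and DMSO 12 h A. The 2 strands of MIR191 had r = 0.18 (permutation p = 0.543, adjusted p = 0.651) and rho = 0.09 (permutation p = 0.75, adjusted p = 0.773). The 2 strands of MIR425 had r = -0.51 (permutation p = 0.0600, adjusted p = 0.120) and rho = -0.54 (permutation p = 0.0473, adjusted p = 0.113). The 2 5p strands had r = 0.02 (permutation p = 0.944, adjusted p = 0.944) and rho = -0.09 (permutation p = 0.773, adjusted p = 0.773). Without DMSO 12 h B and DMSO 0 h A, r was -0.26 for the 2 strands of MIR191, a turn of sign, and 0.18 for the 2 5p strands. Without PA 3 h B and PA 24 h A, r was -0.52 for the 2 strands of MIR425. None of the 6 pairs passed after adjustment. The permutations shuffled all 14 libraries freely, although they form 7 groups of 2. Libraries of a group are not independent points, so these p-values may be too small and serve as description only. The PA 24 h and DMSO 24 h levels of miR-191-3p, which chose the cluster, enter every pair with that strand. PA 24 h A was kept where PA 24 h B was left out.

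The entries most like each miRNA over the 14 libraries are given as a description, since they were picked for their r. For miR-191-5p they were miR-125a-5p (r = 0.95), miR-221-3p (0.90) and miR-186-5p (0.89), and without the DMSO 12 h libraries these values were 0.90, 0.72 and 0.74. All 3 were, like miR-191-5p, higher in DMSO 12 h B than in A, with log2 differences of 1.27, 1.04 and 1.01. For miR-191-3p they were miR-3529-3p (0.88), miR-106a-5p (0.81) and miR-7-5p (0.80). miR-3529-3p is copied from the strand opposite a site of miR-7-5p, so that counting without strand could mix their reads. For miR-425-5p the nearest was the unnamed entry chr13_28163 (0.77), followed by miR-6873-3p (0.73) and the unnamed chr1_2271 (0.71). For miR-425-3p they were miR-30c-1-3p (0.77), miR-1249 (0.71) and miR-423-3p (0.71).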

How the data were processed

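Small RNA from 14 PANC-1 libraries was analysed. The authors deposited raw read counts per mature miRNA entry, as the values show. Bowtie, bcl2fastq, edgeR and genome build GRCh38 are named in the submitters' processing notes. Versions, annotation release, strand use and the rule for reads mapping to several places are not given in the sources used here.

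Counts were tested with edgeR 4.0.16 in R 4.3.3 (glmQLFit, robust, TMM) after filterByExpr by group (minimum count 10, minimum total 15), in 1 fit of all 14 libraries. Adjusted p-values are Benjamini-Hochberg over the 810 entries kept, with a threshold of 0.05. Standard errors are the fold change over the root of F. Log2 CPM used a prior count of 2. Arm balance, log2 of 3p over 5p with 0.5 added to each count, was tested with limma 3.58.1 (trend, robust) over 162 hairpins whose arms share a name. Correlation p-values used 100000 permutations, two-sided. Both tests were checked on simulated data. Alternatives included DESeq2 1.42.0.

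The members and lists were chosen with earlier results of these data known. Named entries were the 4 members, the 3 most correlated with each, the 3 steadiest and 3 least steady references, the 3 highest and 3 lowest passing arm changes at 12 h, and tested miRNAs within 5 Mb.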

Additional observations from a re-analysis of the deposited data

Results flagged for a closer look

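miR-191-5p lay below DMSO in both PA libraries at 3 h and, with TMM scaling, above it in both at 24 h. The log2 fold changes were -0.08 ± 0.24 and 0.29 ± 0.24 (standard error from edgeR), a difference of 0.37. Scaled by total counts, DMSO 24 h B (20042 CPM) lay above both PA 24 h libraries (19740 and 19215 CPM). Such separation of 2 libraries from 2 is a weak sign, and no result is read from it. How many of all tested entries were separated in this way was not counted. The difference between the times was not tested. The 3 h change did not pass (edgeR adjusted p = 1), and the 24 h change is given without a test.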

How the results depend on the processing

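The count of cluster miRNAs past the threshold in PA 24 h against DMSO 24 h was 1; that contrast chose the cluster, so nothing is read from the count. It was 0 with DESeq2, with no filter, with the 4 libraries compared alone and with the replicate block, and 0 to 1 with each library left out. In DMSO 12 h against 0 h the count was 2. It was 1 with no filter (miR-191-3p 1.12, adjusted p = 0.0564), 0 with the 4 libraries alone and 0 to 2 with each library left out. At PA 12 h it was 0 to 1 with each library left out. The replicate block changed no other call. Labels do not say that letters mark a shared culture or day, and deviations of same-lettered libraries correlated at -0.17 to 0.11 over 21 pairs of groups. The sign of some values turned. For miR-425-5p at PA 12 h it was -0.031 with total counts and -0.026 with DESeq2, and -0.14 to 0.14 with each library left out. For miR-425-3p in DMSO 3 h against 0 h it was -0.060 with total counts and -0.11 to 0.52. With DMSO 3 and 24 h as the control at PA 12 h, miR-191-5p was at 0.044 and miR-425-3p at 0.016. With each library left out, miR-191-5p at PA 12 h ran from -0.99 to 0.090 and miR-425-5p in DMSO 3 h against 0 h from -0.062 to 0.036. Arm balances ran from -0.31 to 0.091 (MIR191, 3 h), -1.04 to 0.45 (MIR191, 12 h) and -0.60 to 0.096 (MIR425, 12 h). At PA 24 h they ran from -0.86 to -0.26 for MIR425, and miR-425-3p ran from -0.52 to 0.047. Leaving both DMSO 12 h libraries out of the other 4 comparisons, a choice made after seeing the data, left each count at its value. The 12 h arm balances against DMSO 3 and 24 h and the counts of SDs without DMSO 12 h were also chosen after seeing the data. Depth limits miR-191-3p most, at 18 reads in PA 24 h B.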

Other observations

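Within 5 Mb of MIR191, RefSeq lists 18 other hairpins with 28 mature entries, of which 23 were in the count table and 7 were tested. At 12 h, miR-135a-5p, which is also made from a gene on another chromosome, rose by 3.26 ± 0.52 (edgeR adjusted p = 0.000775) and miR-138-5p, which has 2 loci, by 0.84 ± 0.24 (adjusted p = 0.0379). Against the mean of DMSO at 3 and 24 h, a control chosen for these after seeing the data, the values were 0.38 ± 0.31 (adjusted p = 0.753) and -0.10 ± 0.20 (adjusted p = 0.902), so both calls rest on the DMSO 12 h libraries. At 24 h miR-4443 rose by 1.42 (edgeR adjusted p = 0.0203). Of all tested entries, 11.1% passed against DMSO of the same time at 12 h and 6.67% at 24 h. No result about the region is read from these few calls. None of the 7 passed at 3 h in edgeR (adjusted p = 1), and no other passed at 12 or 24 h against DMSO of the same time. let-7g-5p, the abundant neighbour at 6626 CPM, had log2 fold changes of 0.04, -0.42 and 0.09 at 3, 12 and 24 h (adjusted p = 0.0627 at 12 h). The scarce let-7g-3p, miR-138-1-3p and miR-5787, at 1.71 to 4.53 CPM, did not pass at any time.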
